A study of Mus with 4 samples.

Results

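Pseudouridine (Ψ) was examined in the mRNAs of 7 genes that mark structural and nerve tissue of the mouse cochlea, namely Otog, Otos, Triobp, Lrp2, Col2a1, Pmp22 and Syp. The sites were taken by gene name from a table of Ψ sites in cochlear RNA, and they numbered 10 of the 755 sites in the table. The 7 genes were among 465 genes with a site. They were chosen by gene name with their Ψ levels in these samples already known, so the levels below are a description and carry no test. Otof, the gene mutated in these mice, had 0 sites in the table. Coverage of its mRNA was not examined here.

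All mice carried the nonsense change c.1315 C > T (p.R439X) in Otof, which encodes otoferlin, a calcium sensor of the ribbon synapse of inner hair cells. The series described 4 samples of cochlear tissue, and the values analysed here came from the 2 samples without treatment, whose columns were headed with an Otof null sign. The 2 samples that received RESTART v3, a guide snoRNA editor aimed at the premature stop codon, were not analysed here. Each untreated sample gave a library with the PRAISE chemistry and a control library without it. Neither the age nor the number of animals in a sample is given by the labels, and the samples hold the whole tissue rather than a sorted cell type. The study describes its experiments in general as done in biological replicates. The labels do not tie the 2 samples to animals, so what the spread between them holds is not known further.

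Ψ is an isomer of uridine made in RNA by pseudouridine synthases, some of which work alone and some of which are directed by H/ACA guide RNAs. In PRAISE, the bisulfite adduct of Ψ is skipped during reverse transcription and appears as a deletion in the read. The deletion ratio is the share of reads at a position that carry a deletion, and the level is the deletion ratio of the chemistry library minus that of the control library, in percentage points. Messenger RNA carries Ψ at fewer positions than the spliceosomal and ribosomal RNAs for which the modification is best known. The 7 genes stand for different compartments of the cochlea. Otog encodes otogelin, a glycoprotein of the tectorial membrane and other acellular membranes of the inner ear. Otos encodes otospiralin, a small secreted protein of fibrocytes in the spiral ligament and spiral limbus. Triobp encodes an actin-binding protein some isoforms of which bundle actin in the rootlets of stereocilia, and Lrp2 encodes megalin, a large endocytic receptor of absorptive epithelia. Col2a1 encodes the collagen of cartilage, Pmp22 a membrane protein of compact myelin, and Syp the synaptic vesicle protein synaptophysin. RNA of fewer cells of a type and less RNA per cell cannot be told apart in such tissue samples.

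All 10 sites had values in replicate 1 and 8 of them had values in replicate 2. Over the whole table, 500 of 755 sites had values in both replicates (66.2%), and 116 of the 250 sites in coding transcripts did (46.4%). A site without a value in a replicate had missed a rule of the authors there, and its level in that replicate is unknown. Of the 10 sites, 8 were single positions and 2 were runs of 2 adjacent positions, in Triobp and Syp, where the deletion cannot be placed on either base. Sequence around the sites was not analysed here.

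Control libraries carried almost no deletions at these positions. In 17 of 18 pairs of site and replicate the control ratio was 0, over 35 to 1727 control reads. The exception was Otog position 5615 in replicate 1, with 1 deletion in 179 control reads (0.559%). A count of 0 allows a control ratio of up to 0.174% at the deepest control, that of Otos in replicate 1, and of up to 8.57% at the shallowest, that of Otog position 5615 in replicate 2. The table had been filtered on a low control ratio, so this contrast was set in part by selection. All intervals and limits given here cover counting error only.

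**Figure D1:**
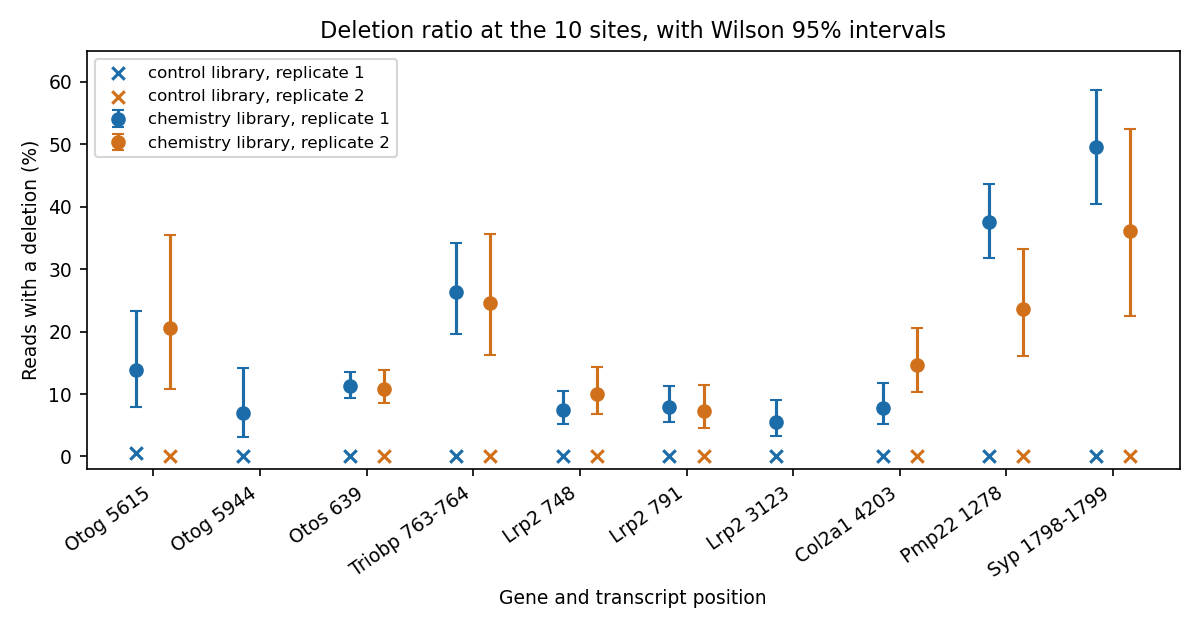
Share of reads with a deletion (%, vertical axis) at each of the 10 sites (horizontal axis) in the chemistry libraries (dots with Wilson 95% intervals) and the control libraries (crosses) of replicates 1 and 2. Syp stood highest in both replicates (49.6% and 36.1%), and the 2 sites without an orange dot were listed in replicate 1 alone.

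The sites of Otog, Triobp and Lrp2 are given first. Otog had 2 sites on transcript NM_013624.2, at positions 5615 and 5944 (GRCm39 chromosome 7, 45937865 and 45938194, plus strand). At position 5615, 11 of 79 chemistry reads of replicate 1 carried a deletion (13.9%, Wilson 95% interval 7.96% to 23.2%). In replicate 2 there were 8 of 39 (20.5%, 10.8% to 35.5%). The level was thus 13.4 points in replicate 1 and 20.5 points in replicate 2, a mean of 16.9 ± 5.05 points (SD, n = 2), and the wide intervals overlapped. At position 5944, 6 of 87 chemistry reads of replicate 1 carried a deletion, a level of 6.90 points (3.20% to 14.2%), and replicate 2 listed no value. The 2 positions are 329 bases apart in the transcript and 329 bases apart in the genome, so no intron separates them.

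Triobp had its site at positions 763 to 764 of NM_001024716.1 (chromosome 15, 78877388, plus strand). Deletions were found in 36 of 137 chemistry reads of replicate 1 (26.3%, 19.6% to 34.2%) and in 18 of 73 of replicate 2 (24.7%, 16.2% to 35.6%). The mean level was 25.5 ± 1.15 points, and the replicates were close although both control libraries were shallow, with 145 and 72 reads. Triobp makes several isoforms, and the site is given on 1 of them only.

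Lrp2 was the gene with the most sites of the 7, with 3 on NM_001081088.2 (chromosome 2, minus strand). Position 748 (69367899) had 29 of 388 deletion reads in replicate 1 (7.47%, 5.25% to 10.5%) and 25 of 250 in replicate 2 (10%, 6.87% to 14.3%), a mean level of 8.74 ± 1.79 points. Position 791 (69366443) had 27 of 340 in replicate 1 (7.94%, 5.51% to 11.3%) and 16 of 220 in replicate 2 (7.27%, 4.53% to 11.5%), a mean of 7.61 ± 0.473 points. Their order differed between replicates, position 791 being higher in replicate 1 and position 748 in replicate 2, and their intervals overlapped in each. These neighbours are 43 bases apart in the transcript but 1456 bases apart in the genome, so 1413 intronic bases lie between them and the sites sit in different exons. With so short a distance in the mRNA, a read may have covered both, and the 2 sites are then not independent. The third site, position 3123 (69340887), was listed in replicate 1 alone, with 14 of 255 deletion reads (5.49%, 3.30% to 9.003%). It was the lowest level of the 10 sites. The 3 Lrp2 levels of replicate 1 thus lay between 5.49 and 7.94 points.

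The fibrocyte gene Otos and the cartilage gene Col2a1 had similar mean levels but unlike spreads. Otos, the deepest of the 10 sites, lay at position 639 of NM_153114.2 (chromosome 1, 92572005, minus strand). It had 101 of 894 deletion reads in replicate 1 (11.3%, 9.39% to 13.5%) and 57 of 524 in replicate 2 (10.9%, 8.49% to 13.8%), a mean of 11.1 ± 0.297 points. None of its 1727 and 933 control reads carried a deletion. Col2a1, at position 4203 of NM_001113515.3 (chromosome 15, 97874584, minus strand), had 20 of 255 in replicate 1 (7.84%, 5.13% to 11.8%) and 27 of 184 in replicate 2 (14.7%, 10.3% to 20.5%). Its mean of 11.3 ± 4.83 points lay 0.171 points from that of Otos, but the level of replicate 2 was 1.87 times that of replicate 1.

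Pmp22 and Syp had the highest mean levels of the 7 genes, from 1 site each. In replicate 2, Pmp22 lay under Triobp (23.7 against 24.7 points). Pmp22, at position 1278 of NM_001302255.2 (chromosome 11, 63049867, plus strand), had 95 of 253 deletion reads in replicate 1 (37.5%, 31.8% to 43.7%) and 22 of 93 in replicate 2 (23.7%, 16.2% to 33.2%). The mean was 30.6 ± 9.82 points. Syp, at positions 1798 to 1799 of NM_009305.2 (chromosome X, 7518812, plus strand), had 56 of 113 in replicate 1 (49.6%, 40.5% to 58.6%) and 13 of 36 in replicate 2 (36.1%, 22.5% to 52.4%), a mean of 42.8 ± 9.51 points. Both sites were lower in replicate 2. Chemistry reads were fewer there at every site with values in both replicates. These included Col2a1, Otog position 5615 and Lrp2 position 748, whose levels were higher in replicate 2.

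By mean level, the 8 sites with values in both replicates rose in the order Lrp2 position 791, Lrp2 position 748, Otos, Col2a1, Otog position 5615, Triobp, Pmp22 and Syp. Of the 7 pairs of neighbours in this order, 5 had overlapping ranges of the replicate values. The ranges did not overlap between Lrp2 position 748 and Otos, whose means were 2.35 points apart, or between Otog and Triobp, 8.53 points apart. Triobp, Pmp22 and Syp thus lay above the other genes in both replicates, and Syp above Triobp and Pmp22 in each, while Triobp and Pmp22 changed places between replicates.

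**Figure D2:**
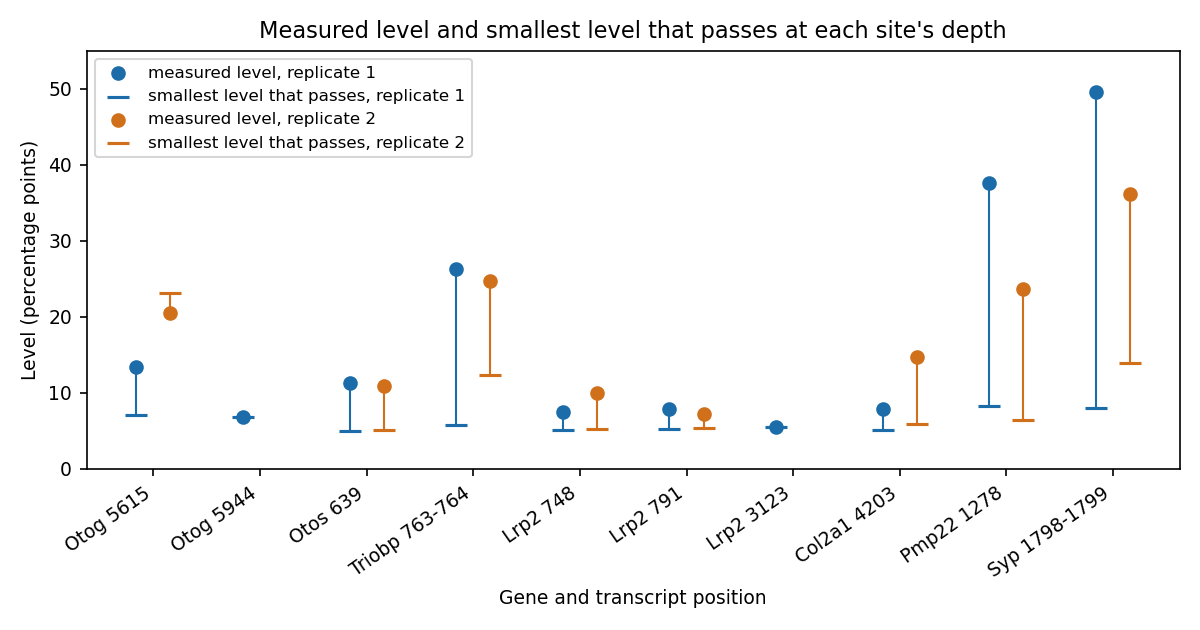
Measured level (dots, percentage points) for each of the 10 sites on the horizontal axis. Dashes mark the limit, the smallest level that would pass the two-sided Fisher p and level rules used here at the reads of that site and replicate. It is not the limit of the authors' filter. Otog position 5944 and Lrp2 position 3123 sat exactly on their limit of 6.90 and 5.49 points, and Otog position 5615 in replicate 2 lay under its limit of 23.1 points.

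How far the read depth could show a site was asked for each position. A call required a two-sided Fisher exact p under 0.005 between chemistry and control reads, a level over 5 points, a control ratio under 5% and at least 20 reads in each library. By these rules, close to those by which the table had been filtered, 10 sites were called in replicate 1, 7 in replicate 2 and 7 in both. Over all genes, 428 of 755 sites were called in both (56.7%), as were 92 of the 250 coding sites (36.8%), and 86.4% and 86.7% of the sites listed in replicates 1 and 2 were called there. Since the table was filtered on this contrast, nothing is read from these shares. The authors' filter had let through more than this two-sided test did, since 6 listed sites of each replicate missed its threshold, against 3 and 0 with a one-sided Fisher exact test. The site not called in replicate 2 was Otog position 5615, where the two-sided test needed 9 deletion reads of 39 at its 35 control reads and 8 were found (Fisher exact p = 0.00564). With the one-sided test 8 reads sufficed (Fisher exact p = 0.00408), so its place outside the call rests on the choice of test. The 2 sites listed in replicate 1 alone were those just inside the rules, with 6 reads found of 6 needed at Otog position 5944 (Fisher exact p = 0.00483) and 14 of 14 at Lrp2 position 3123 (Fisher exact p = 0.00346). With 1 deletion read fewer, neither would have passed the two-sided test. The one-sided test needed 6 reads at Otog position 5944 and 13 at Lrp2 position 3123. At Otos, 45 and 27 deletion reads would have sufficed, levels of 5.03 and 5.15 points, against 101 and 57 found. Syp needed only 9 and 5 deletion reads and had 56 and 13.

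Read depth moved between the replicates in ways that differed by gene. In replicate 2 every one of the 8 sites had fewer chemistry reads than in replicate 1, from 0.319 times at Syp and 0.368 times at Pmp22 to 0.722 times at Col2a1. The median over 102 coding sites with at least 20 chemistry reads in each replicate was 0.687 times (quartiles 0.547 and 0.972). In the control libraries, which did not go through the chemistry, Otog position 5615 had 0.196 times and Col2a1 0.253 times the reads in replicate 2, while Pmp22 had 1.93 times and Lrp2 position 748 1.33 times. The median of the 102 coding sites in the control was 1.45 times (quartiles 0.677 and 2.27). Both medians and their quartiles include 16 sites of Lars2. All of these had more chemistry reads in replicate 2, such as 53747 against 681 at position 3623. Depth without Lars2 was not computed. Of the 7 genes, Otog, Col2a1, Triobp (0.497 times) and Otos (0.540 times) lay under the lower quartile, and Lrp2, Pmp22 and Syp (0.886 times) lay between the quartiles. With 1 group of 2 samples there was no test of these depths.

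**Figure D3:**
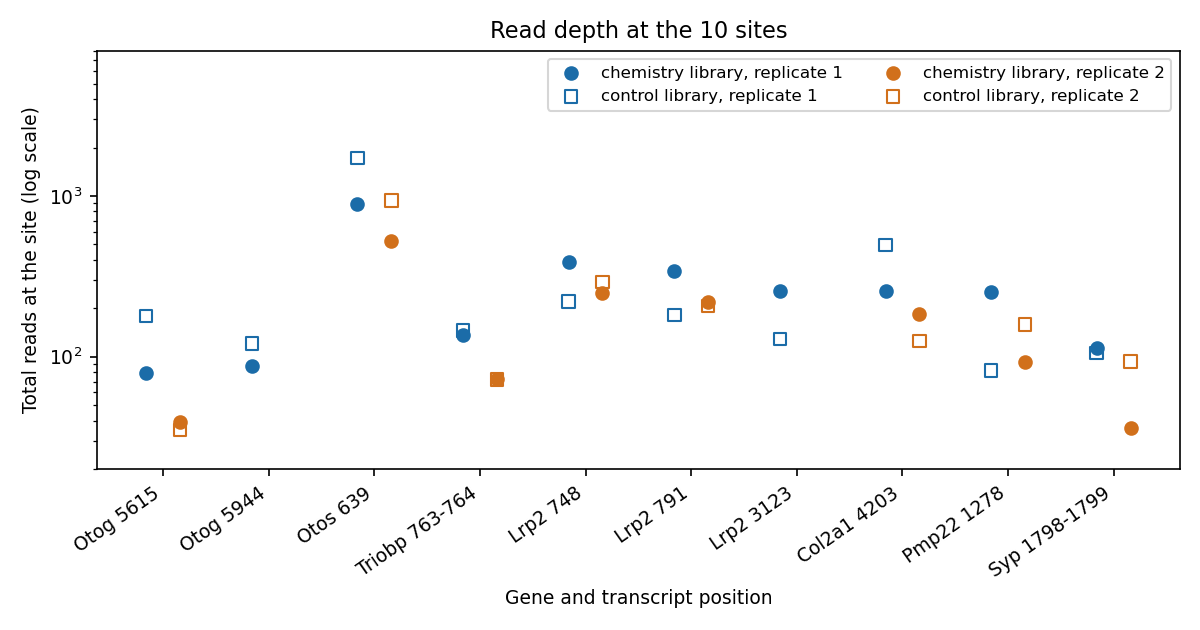
Total reads at each of the 10 sites (log scale, vertical axis) in the chemistry (filled circles) and control (open squares) libraries of replicates 1 and 2. Otos was the deepest site in every library, with 524 to 1727 reads, and the fewest reads were 36 at Syp with the chemistry and 35 at Otog position 5615 in the control of replicate 2.

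How far the levels moved between the replicates is given as a description, since the levels of both replicates were known when the genes were chosen and each replicate is 1 pair of libraries. The intervals are those of the chemistry ratio of replicate 2 minus that of replicate 1, from counting error alone. Pmp22 was 13.9 points apart, with a 95% interval of -23.6 to -2.73 points, and Col2a1 was 6.83 points apart, with an interval of 0.919 to 13.3 points. These were the 2 sites whose interval did not include 0. The intervals were not adjusted for the number of sites looked at. The Wilson intervals of the 2 replicates overlapped at all 8 sites, Pmp22 and Col2a1 included. Syp was 13.4 points lower in replicate 2, with an interval of -29.8 to 5.21 points. With 36 chemistry reads in replicate 2, the interval at Syp thus held changes of either sign. No change between replicates is claimed from any of these intervals.

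Otos was the steadiest of the sites, with a difference of -0.420 points and an interval of -3.69 to 3.10 points. Lrp2 position 791 differed by -0.668 points (-5.01 to 4.19), Lrp2 position 748 by 2.53 points (-1.85 to 7.41) and Triobp by -1.62 points (-13.2 to 11.2). For Otog position 5615 the interval of the ratio difference was -6.88 to 22.8 points. In all, 4 sites differed by under 3 points and 4 by over 6 points, and 3 were higher and 5 lower in replicate 2. The median size of the difference was 4.68 points over the 8 sites and 2.14 points over the 102 coding sites. These medians were not matched for depth. Chemistry reads ran from 36 to 894 at the 8 sites and from 21 to 53747 among the 102, so the medians are not compared.

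At all 4 sites that differed by over 6 points, the ratio of chemistry to control reads moved the same way as the level. At Pmp22 this ratio of reads was 3.09 in replicate 1 and 0.589 in replicate 2, and at Syp it was 1.08 and 0.387, with the lower level in replicate 2 each time. At Col2a1 it was 0.515 and 1.47 and at Otog position 5615 0.441 and 1.11, with the higher level in replicate 2. Over the 8 sites, 5 moved the same way in both measures, and over the 102 coding sites 58 did. The part of read depth in the levels was not tested.

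**Figure D4:**
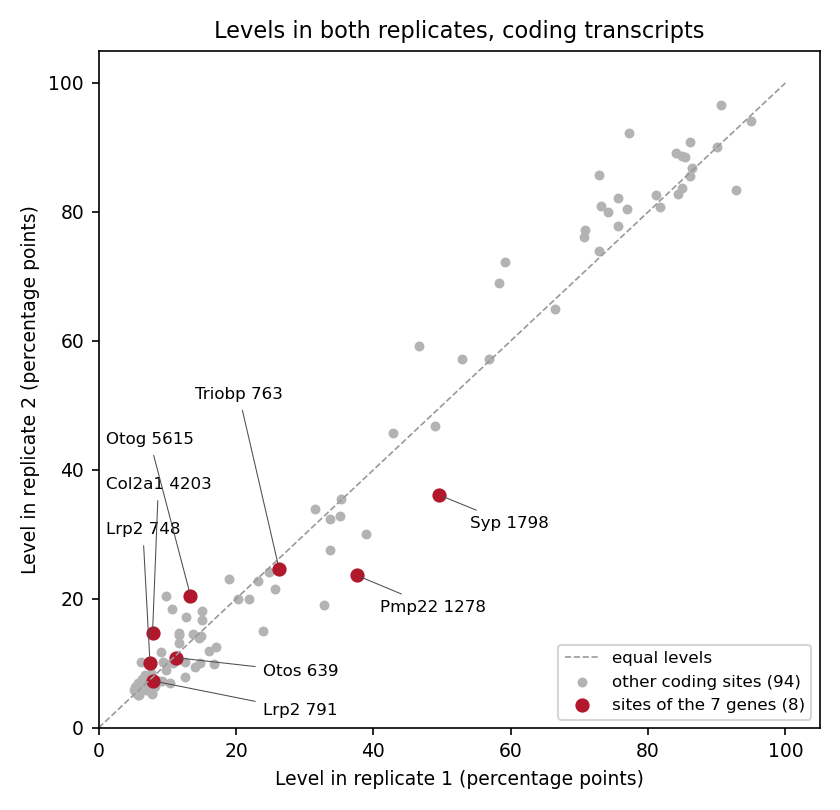
Level in replicate 1 (horizontal axis) against level in replicate 2 (vertical axis), in percentage points, for the 102 coding sites with at least 20 chemistry reads in each replicate, with the 8 sites of the 7 genes in red and a dashed line of equal levels. The red sites lay between 7.27 and 49.6 points, with Pmp22 and Syp under the line and Col2a1 and Otog above it.

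Among the 102 coding sites, the 8 ranked between 33 (Syp, counted from the highest mean level) and 84 (Lrp2 position 791). The mean levels of the 102 had a median of 16.2 points, quartiles of 8.90 and 65.2 points and a range from 5.41 to 94.6 points. The upper quartile was set in part by Lars2, which held 16 of the 102 sites, 14 of them above Syp. Leaving out Lars2, which was decided with these values in view, gave 86 other coding sites a median of 14.2 and an upper quartile of 33.7 points. Syp lay above that upper quartile and under that of all 102 sites, and the other 7 sites lay under both. As these genes were chosen with their levels known, the ranks only place them.

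For each of the 8 sites the coding site of another gene with the nearest pair of levels over the 2 replicates was looked up. Otos lay 0.370 points from Tulp4 positions 931 to 933, and Lrp2 position 791 lay 0.0486 points from position 6008 of the predicted gene Gm41607. Triobp was nearest to position 645 of Gsn, the actin-severing gene gelsolin (24.9 and 24.1 points, a distance of 1.53 points). The nearest sites of the others were 1.37 points away for Lrp2 position 748 (Ppp1ca), 2.91 for Otog (Mtdh), 3.09 for Col2a1 (Rps4x), 5.48 for Pmp22 (Dcaf6) and 10.7 for Syp (Lars2). Likeness over 2 samples says little, and for Syp no close site was found.

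Other genes of the same tissues were looked up in lists for each compartment. Of 79 genes in all lists, 11 had a site, the 7 genes included, and the other 68 had none. Since the table holds only positions that passed, a gene without a site may be unmodified, too shallow or not expressed. Of 10 genes of the tectorial and other acellular membranes, 2 had a site, Otog and Col9a2. The latter, a chain of the cartilage collagen IX, had 13 of 68 deletion reads in replicate 1 alone (19.1 points, 11.5% to 30.01%) at positions 2568 to 2572 (chromosome 4, 120912348). Otos was the only gene with a site of 9 genes of fibrocytes and cochlear fluid, Lrp2 of 7 of endocytosis, Pmp22 of 10 of myelin and Syp of 14 of the synapse, a list that held Otof.

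Of 16 genes of the hair bundle and actin, 3 had a site. Besides Triobp these were Gsn (24.5 ± 0.537 points over 780 and 303 chemistry reads) and Myo15a, a motor protein that works at the tips of stereocilia. Myo15a rested on 5 of 5 reads in replicate 1 alone, with an interval of 56.6% to 100%, and missed the minimum of 20 reads. Of 14 genes of cartilage and bone matrix, Col2a1 and Col1a2 had a site. Col1a2, a chain of collagen I, had 25 of 396 deletion reads in replicate 2 alone (6.31 points, 4.31% to 9.15%). The collagen and membrane genes of these lists thus had values in both replicates only at Col2a1 and at Otog position 5615.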

How the data were processed

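Cochlear RNA was depleted of rRNA and fragmented, per the study's methods, while the labels give polyA RNA. The submitters' processing notes name cutadapt 4.2, UMI-tools 1.0.0 and GRCm39. Reads were thinned to a common size and aligned with PRAISE-tool to RefSeq transcripts. The deposited counts are deletion and total reads per site in the chemistry and control libraries. The deposited fractions are deletion ratios and their difference, and the levels here were computed again from the counts. The 2 columns of the authors' p-values were not used, and 0 columns lacked a sample. Column headers were matched to the untreated samples by title and number.

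Scripts ran in Python (version 3.11.15), with SciPy (version 1.17.1) for tests, and pandas (version 2.3.3) and NumPy (version 2.4.6) for tables. Fisher exact tests of chemistry against control reads were two-sided. A Fisher test between replicates was also computed, but it is not reported, since the levels it compares were known when the genes were chosen. Intervals of a ratio are Wilson 95% intervals, and those of a difference combine them by Newcombe's method. A count of 0 was bounded by 3 counts. Chemistry reads per site ran from 36 to 894. Coding transcripts were those with NM or XM identifiers. All 7 transcripts matched a RefSeq gene table of GRCm38.p6 by accession, 5 in the same version, and the table was used for names only. In it, Triobp overlaps Gm10865 and Mir6956, and Col2a1 overlaps Gm46536. The library kit is stranded, but whether alignment used strand is not given in the sources used here. The genes, lists and rule for named genes (all sites of the 7 genes, Otof, the nearest coding site of each and listed genes with a site) were chosen with earlier results of these data known. Alternatives concerned the read minimum, level and p thresholds, the test, the control subtraction, an added count of 0.5, pooling and leaving out a replicate.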

Additional observations from a re-analysis of the deposited data

How the results depend on the processing

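Of the 10 sites, 7 were called in both replicates (56.7% of all sites in the table), and 4 at a level over 10 points (44.4% of all), where both Lrp2 sites and Col2a1 were lost. The count was 6 at 50 reads (46% of all), 7 at 10 reads (62.1%) and at the stricter p threshold (53.6%), and 8 with the chi-square test (56.6%) and the one-sided Fisher exact test (57.2%), the latter chosen after seeing the data. The replicates taken singly gave 7 to 10. Pooling reads moved a mean level by at most 3.47 points, the added count of 0.5 by at most 0.312 and no subtraction by at most 0.279. Leaving out a replicate cannot move a mean of 2 beyond their SD, so it says nothing on stability, but it moved Pmp22 by 6.95 points, to 23.7 or 37.5. No paired analysis was possible because the RESTART v3 samples, which share the replicate numbers, were not analysed here.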
